A study of Arabidopsis thaliana with 72 samples.

Results

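The libraries labelled phr1phl1phl2phl3 (quadruple) were compared with those labelled phr1phl1phl2 (triple), both from roots grown without phosphate (-Pi). The comparison held 3 libraries against 3, out of 72 libraries in the series, and all genes of the table, of which 21206 of 33602 were tested. Both groups were roots of 8-day-old Arabidopsis thaliana seedlings, and both carried phr1, phl1 and phl2 in their labels, so that phl3 was the labelled difference. The same pair of genotypes grown with phosphate (+Pi), again 3 libraries each, and the wild type Col-0 (Col) on either medium, 3 libraries each, served for reference. The other genotypes, phr1, phl1, phl2, phl3, phl4, phr1phl1, phr1phl2, phr1phl3 and phr1phl4, on either medium, served to describe levels. The spread behind the p-values of the main fit was estimated from all 72 libraries. The labels name the mutated genes but neither the alleles nor whether a genotype is 1 line. The values are RPKM, reads scaled by gene length and library depth. A gene was called when its adjusted p in a limma fit on log2(RPKM + 1) was under 0.05 and its log2 difference was at least 1 in size, and differences are given as quadruple minus triple on that scale, which understates those of low genes.

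PHR1 is a MYB-type transcription factor that induces genes of the phosphate starvation response through a promoter element named P1BS. PHL1, PHL2, PHL3 and PHL4 are its relatives, and in Arabidopsis several of them act redundantly with it. Under phosphate starvation, roots raise phosphate transporters, secreted phosphatases and ribonucleases, replace membrane phospholipids with lipids that hold no phosphorus, and make microRNAs and non-coding RNAs that tune phosphate uptake. The comparison asks what the roots labelled as lacking PHL3 as well show beyond the triple mutant.

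The PHL3 transcript did not separate the groups. It stood at 12.0, 13.3 and 11.6 RPKM in the triple libraries and at 10.01, 16.4 and 10.9 RPKM in the libraries labelled quadruple. The groups overlapped, the log2 difference was -0.01 ± 0.26 (SE) and its 95% interval ran from -0.55 to 0.52. Elsewhere without phosphate the PHL3 mean was 5.46 RPKM in Col, 15.2 RPKM in phl3 and 3.48 RPKM in phr1phl3. All results below are therefore given by label, with no statement that PHL3 was lost. PHL2, mutated in both, was low in both: 2.60, 2.89 and 2.86 RPKM in the triple and 2.30, 4.03 and 2.31 RPKM in the libraries labelled quadruple, against a mean of 34.3 RPKM in Col -Pi. PHR1 itself read 2.81 to 3.70 RPKM across these 6 libraries, against a mean of 18.9 RPKM in Col -Pi. PHL1 was 3.78, 3.86 and 3.05 RPKM in the triple and 2.49, 2.35 and 2.32 RPKM in the libraries labelled quadruple, a log2 difference of -0.43 with an adjusted p of 0.0379 that was too small for a call. PHL4, mutated in neither, differed by -0.06 (95% interval -0.48 to 0.36).

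Depth, estimated from the low values, was 18.2 to 32.3 M reads in the 6 libraries. Quadruple replicate 2 stood apart. Its log2 values correlated with those of the other 5 libraries at r = 0.898 to 0.951, while the other 5 correlated among themselves at 0.962 to 0.992 (across genes, which are not replicates). Chloroplast genes took 0.357% of its summed RPKM, against 1.36% to 1.63% in the others. Its values, relative to each gene's mean over the 72 libraries, also fell with gene length. The slope was -0.27 per standard deviation of log2 length, fitted together with GC and adenine content, against -0.12 to 0.17 in the others. Several results are given with and without it, though not those of every named gene, and its part in them was not tested. Root hair markers summed to 391 to 417 RPKM, endodermal barrier genes to 465 to 515 RPKM and markers of dividing cells and the root tip to 200 to 211 RPKM over the 6 libraries, and none of the 51 genes of these lists was listed at 0 in all 6.

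Without phosphate, 135 genes were called between the groups, 0.637% of those tested. Of these, 103 were higher (0.486%) and 32 lower (0.151%) in the libraries labelled quadruple. At an adjusted p under 0.05 with no minimum size, 597 genes (2.82%) passed, 356 higher and 241 lower. In 130 of the 135 called genes the 3 and 3 libraries did not overlap, as was so for 15.5% of all genes tested. The differences were mostly moderate, with a median size of 1.29 on the log2 scale, and 19 genes were higher and 4 lower by at least 2. Quadruple replicate 2 was the highest of its group in 70 of the 103 higher genes and the lowest in 27 of the 32 lower ones. Without it 87 genes were called (0.41%), of which 73 were among the 135. With the library class as a term, explained with the processing, 112 genes were called (0.528%), 97 of them among the 135.

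**Figure D1:**
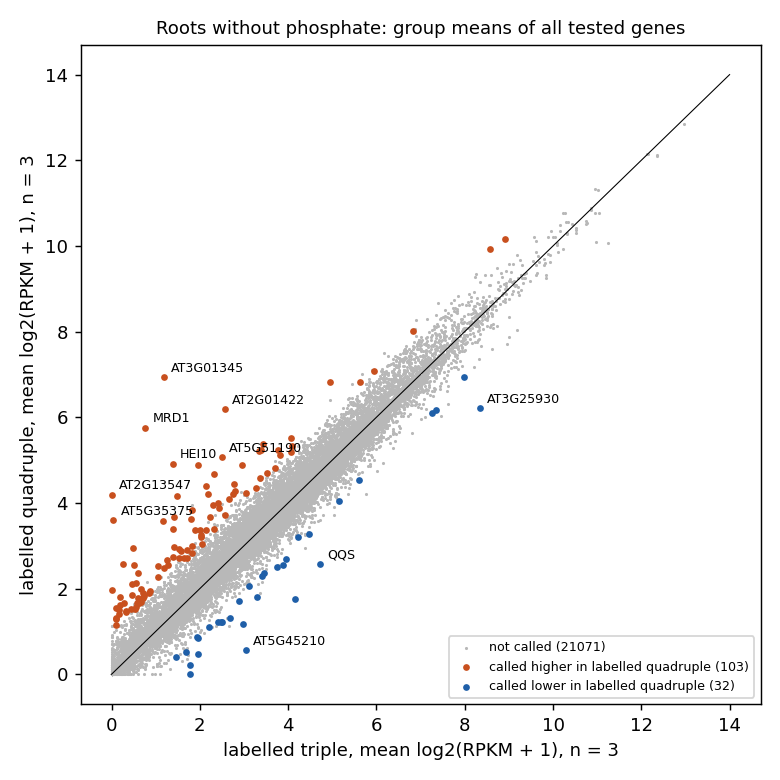
Mean log2(RPKM + 1) of each tested gene in the libraries labelled triple (horizontal axis, n = 3) and labelled quadruple (vertical axis, n = 3), both without phosphate. The 103 orange genes were called higher and the 32 blue genes lower in the libraries labelled quadruple, and the line marks equal means; most genes lie near it, and AT3G01345, MRD1 and AT2G13547 lie farthest above it.

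A small group of genes was far lower in the triple than in the libraries labelled quadruple. AT3G01345, an uncharacterized protein gene on chromosome 3, read 1.63, 0.908 and 1.33 RPKM in the triple and 131, 119 and 115 RPKM in the libraries labelled quadruple. No library of the groups overlapped, which was a condition for naming the largest called differences. The log2 difference of 5.75 ± 0.11 (SE) was the largest of the comparison (adjusted p 6.89e-42). MRD1, named for a transcript that falls in the methionine-overaccumulating mto1 mutant, read 0.569, 0.813 and 0.709 RPKM in the triple and 55.1, 45.4 and 59.5 RPKM in the libraries labelled quadruple. Its log2 difference was 4.995 ± 0.13 (adjusted p 7.79e-35), beside a mean of 41.9 RPKM in Col -Pi. HEI10, the ligase-like protein that acts in meiotic crossover formation, overlaps MRD1 in the annotation and was higher by 3.53 ± 0.13 (adjusted p 5.88e-29). It read 1.28, 1.57 and 2.07 RPKM against 29.6, 26.1 and 32.3 RPKM. The labels give no strand, so reads of these 2 genes cannot be told apart with certainty.

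Other genes with large differences carry no name. AT5G35375 was listed at 0, 0.0849 and 0 RPKM in the triple and at 14.4, 7.24 and 13.2 RPKM in the libraries labelled quadruple (adjusted p 1.12e-33). AT2G13547 was listed at 0 in all 3 triple libraries and at 9.79, 39.5 and 13.1 RPKM in the libraries labelled quadruple (adjusted p 1.16e-22). These 2 genes were off or nearly off on 1 side, so no fold is given. AT2G01422, annotated as a non-coding RNA, read 3.02, 7.11 and 5.28 RPKM against 117, 33.7 and 93.7 RPKM, a log2 difference of 3.63 ± 0.30 (adjusted p 6.64e-14). AT1G43590 read 2.90, 2.65 and 3.13 RPKM against 48.1, 15.3 and 31.9 RPKM, a difference of 2.94 ± 0.31 (adjusted p 6.22e-10). AT2G05995, also a non-coding RNA, read 0.27, 0.617 and 0.354 RPKM against 9.56, 2.84 and 10.2 RPKM (2.45 ± 0.17, adjusted p 1.97e-16). In the last 3 genes replicate 2 was the lowest of the libraries labelled quadruple. It was still above every triple library, as the naming rule required.

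The genes with the largest fall in the libraries labelled quadruple included a neighbouring pair of immune receptor genes. AT5G45210 and AT5G45200, adjacent genes on chromosome 5 annotated as TIR-NBS-LRR disease resistance proteins, were both nearly absent. AT5G45210 read 6.202, 7.48 and 8.17 RPKM in the triple and 0.449, 0.499 and 0.473 RPKM in the libraries labelled quadruple (-2.48 ± 0.16, adjusted p 1.35e-17). AT5G45200 read 3.50, 1.88 and 2.15 RPKM in the triple and was listed at 0.0324, 0 and 0 RPKM in the libraries labelled quadruple (adjusted p 1.04e-11). QQS, a gene found only in Arabidopsis thaliana that affects starch content, read 26.3, 25.5 and 24.6 RPKM against 5.51, 4.51 and 4.91 RPKM (-2.15 ± 0.41, adjusted p 4.64e-04). The terpenoid cyclase gene AT4G20210 read 6.32, 7.08 and 7.32 RPKM against 1.68, 1.01 and 1.18 RPKM (-1.80 ± 0.14, adjusted p 6.68e-15). In all 4 genes every library labelled quadruple lay below every triple library. This was a condition for naming them, and the groups did not overlap, in either direction, in 15.5% of all genes tested.

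AT3G25930, an adenine nucleotide alpha hydrolase-like gene, was abundant and less even. It read 385, 299 and 295 RPKM in the triple and 113, 32.7 and 104 RPKM in the libraries labelled quadruple (-2.13 ± 0.51, adjusted p 0.00735), and without replicate 2 the difference was -1.57 with an adjusted p of 0.191. Also lower were AT1G52343 (-1.495), AT2G36180, an EF-hand calcium-binding gene (-1.47), AT1G70949 (-1.36) and the snoRNA gene AT3G58196 (-1.56). The last 2 were not called without replicate 2, with adjusted p of 0.121 and 0.203.

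MIR157b, the precursor gene of a microRNA that targets SPL transcription factors, read 20.0, 18.8 and 12.8 RPKM in the triple and 3.15, 2.42 and 1.70 RPKM in the libraries labelled quadruple (-2.41 ± 0.37, adjusted p 7.76e-06). Its mature 5-prime product is shown because it is the microRNA the called gene encodes. Capitals mark its seed, bases 2 to 8, and it lies at chr1:24921104-24921124 on the plus strand of TAIR10.1 (RefSeq annotation, DNA letters).
miR157b-5p: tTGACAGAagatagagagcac
The libraries were made from poly(A)-selected RNA, so the value is that of the precursor transcript and says nothing of the mature microRNA. In Col -Pi MIR157b read 2.90 RPKM, and with phosphate it was listed at 0 RPKM in all 6 libraries of both mutants.

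**Figure D2:**
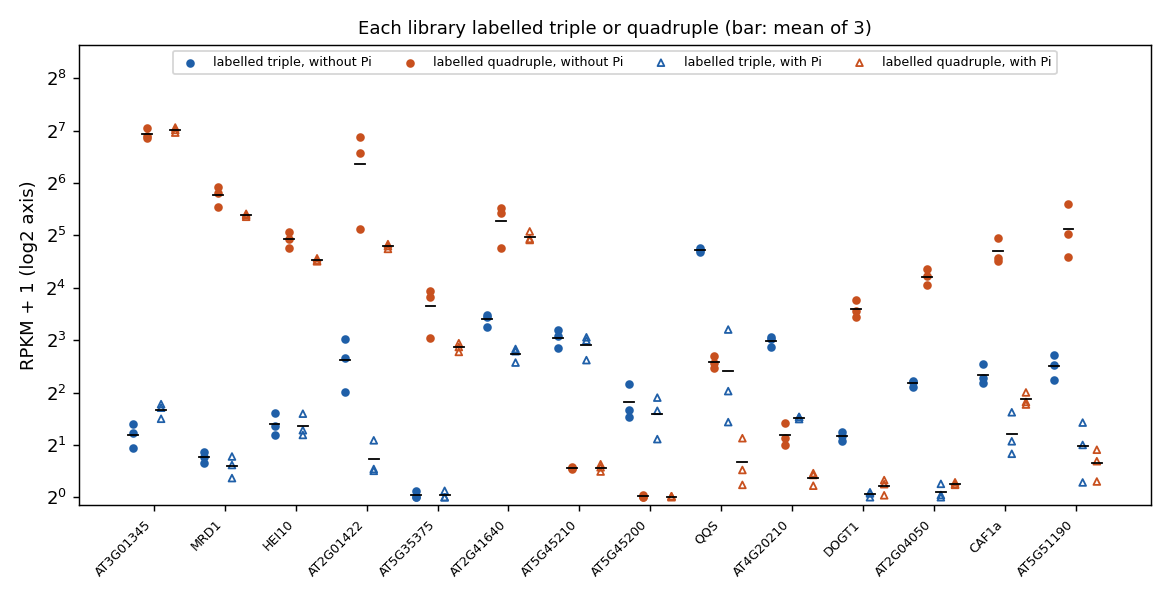
RPKM + 1 on a log2 axis in each of the 12 libraries labelled triple (blue) or quadruple (orange), without phosphate (filled circles) and with phosphate (open triangles), for 14 genes; bars are means of 3. AT3G01345, MRD1, HEI10, AT5G45210 and AT5G45200 show the same separation on both media, whereas DOGT1, AT2G04050, CAF1a and AT5G51190 were called without phosphate only.

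The same contrast with phosphate, in 6 other libraries, called 523 genes (2.47%), 286 higher and 237 lower. With the library class as a term that split was 364 higher and 159 lower. Among these libraries triple replicate 2 stood apart. Chloroplast genes took 0.298% of its summed RPKM, against 1.26% and 1.58% in the other triple libraries with phosphate. Its slope on gene length was -0.25, against 0.28 and 0.29 in those. Without it 559 genes were called, 406 higher and 153 lower, and 375 of them were among the 523 with the same sign. Of the 135 genes called without phosphate, 26 were also called with it. In 20 the sign was the same, 14.8% of the calls without phosphate and 3.82% of those with it, and in 6 it was opposite. The 12 higher genes of the 20 were AT3G01345 (5.35 with phosphate), MRD1 (4.80), AT2G01422 (4.08), AT1G43590 (3.26), HEI10 (3.18), AT5G35375, AT2G41640 (2.25), AT2G05995 (2.17), AT4G04223 (1.57), AT2G13547, AT2G03821 (1.13) and LUP1, a lupeol synthase (1.11). The 8 lower genes were AT5G45210 (-2.33), AT1G23160 (-1.68), QQS (-1.59), AT5G45200, AT4G16220 (-1.41), AT4G26290 (-1.37), RGF4, a root meristem growth factor (-1.295), and AT4G20210 (-1.15). Several of these are outside the naming rule and are named because they make up this count.

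Levels over all 24 groups, given here as a description, show 3 patterns among these 20 genes. In the first, the libraries labelled quadruple were alone. AT5G45210 read 0.405 to 0.547 RPKM in the 6 libraries labelled quadruple on both media, whereas the 60 libraries of the other 10 genotypes ran from 6.12 to 17.6 RPKM and the 6 triple libraries from 5.14 to 8.17 RPKM. AT5G45200 read at most 0.0324 RPKM in the 6 libraries, against 1.20 to 4.98 RPKM in those 60. AT5G35375 read 5.85 to 14.4 RPKM, against at most 0.189 RPKM in the 60. AT2G41640, a glycosyltransferase family 61 gene, read 26.1 to 45.1 RPKM, against 4.68 to 18.5 RPKM in the 60. AT1G43590, AT2G13547 and AT2G03821 likewise had none of the 60 at or above their lowest library labelled quadruple. For AT2G13547 that lowest value was 1.63 RPKM, with phosphate. The gene was also read in phr1phl1, at 0.213 to 1.36 RPKM without phosphate, against 9.79 to 39.5 RPKM in the libraries labelled quadruple there.

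In the second pattern the gene was high in some genotypes and near 0 in others, in an order that did not follow the labelled mutations. AT3G01345 averaged 121.7 RPKM without phosphate in the libraries labelled quadruple, 118.4 in phr1phl2, 114.7 in phr1phl3, 87.3 in phr1phl4 and 65.4 in phr1, but 1.29 in the triple, 0.431 in phr1phl1 and 0.282 in Col. MRD1 averaged 53.4 RPKM in the libraries labelled quadruple, 59.7 in phr1phl4, 50.2 in phr1phl3, 44.4 in phl4 and 41.9 in Col, and 0.697 in the triple, 0.854 in phr1phl1 and 1.58 in phr1. HEI10 was high in the same genotypes as MRD1, with 29.3 RPKM in the libraries labelled quadruple and 1.64 in the triple. AT2G01422 averaged 81.4 RPKM in the libraries labelled quadruple, 101.0 in phl4, 92.5 in phr1phl1 and 26.5 in phr1phl4, and 5.14 in the triple and 6.44 in Col. With phosphate each of these 4 genes was high in the same genotypes. The non-coding RNA genes AT2G05995 and AT4G04223 were each shared with 1 other genotype, at 5.66 RPKM in phr1phl1 and 4.64 in phl3.

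In the third pattern the levels were spread over a range. Without phosphate QQS averaged 111.1 RPKM in Col, 60.6 in phl4, 25.5 in the triple and 23.5 in phr1phl1. It averaged 8.404 RPKM in phr1phl4, 5.998 in phr1, 5.918 in phr1phl2 and 4.98 in the libraries labelled quadruple. It was lower still in phl2 (1.884), phl3 (1.135), phl1 (0.886) and phr1phl3 (0.742). As in the second pattern, this order did not follow the labelled mutations. On either medium, 37 of the 60 other libraries were at or below the highest library labelled quadruple. AT4G20210 was above 6 RPKM in the means of all 11 other genotypes without phosphate and at 1.29 RPKM in the libraries labelled quadruple. Over both media together, RGF4, AT1G23160, AT4G16220, AT4G26290 and LUP1 ran through a range that at least 4 of the 60 other libraries shared. On each medium alone, AT1G23160 and AT4G20210 were lower in the libraries labelled quadruple than in every other library. AT1G23160 read at most 1.11 RPKM against at least 1.35 without phosphate, and at most 3.25 against at least 4.16 with it. For AT4G20210 these values were 1.68 against 5.62 RPKM without phosphate and 0.375 against 1.345 RPKM with it.

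**Figure D3:**
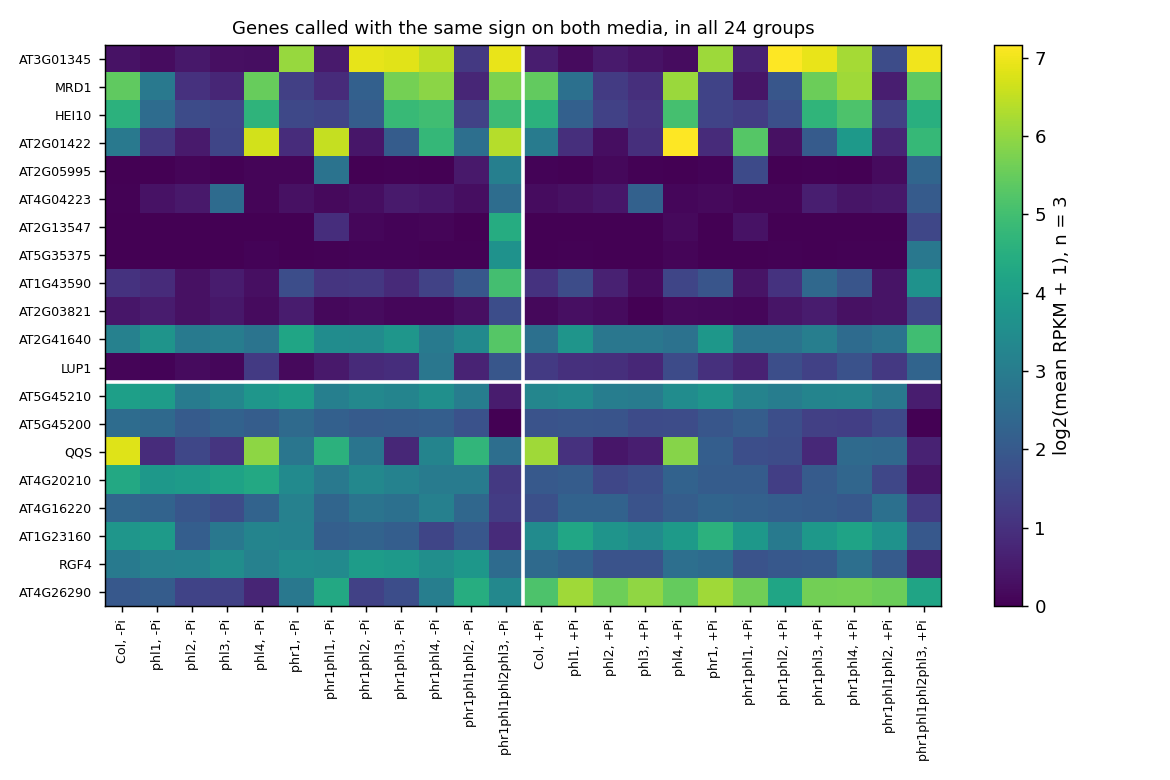
Mean level, as log2(mean RPKM + 1), of the 20 genes called with the same sign on both media, in the 12 genotypes without (left) and with phosphate (right), 3 libraries a group; the white lines part the media and the higher from the lower genes. AT5G45210 and AT5G45200 are darkest in the columns labelled phr1phl1phl2phl3, whereas AT3G01345, MRD1, HEI10 and AT2G01422 alternate among genotypes.

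Most genes called without phosphate were not called with it. The difference between media was called for 780 genes (3.68% of those tested), 410 higher and 370 lower without phosphate. It was called for 73 of the 135 genes, but these were chosen by the same difference without phosphate, so nothing is read from that count. AT5G51190, an AP2/ERF-type transcription factor gene, was called higher without phosphate and not called with it. It read 3.74, 5.57 and 4.76 RPKM in the triple and 23.1, 47.3 and 31.7 RPKM in the libraries labelled quadruple (2.58 ± 0.28, adjusted p 1.58e-09), with a difference of -0.27 with phosphate. AT1G09310, a DUF538 protein gene, read 0.431, 1.08 and 6.26 RPKM against 10.2, 32.8 and 14.2 RPKM (2.68 ± 0.41, adjusted p 5.76e-06). AT3G45730 was higher by 1.43 without phosphate and lower by 1.93 with it, and its call without phosphate was lost without replicate 2 (1.008, adjusted p 0.413).

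Further genes of this kind were chosen after their values were seen. Most are known for roles in detoxification, stress signalling or alternative respiration. DOGT1, a glucosyltransferase that acts on deoxynivalenol and brassinosteroids, differed by 2.43 (adjusted p 3.06e-25) without phosphate and by 0.15 with it. UGT73C6, its neighbour in the same gene family, differed by 1.18 (adjusted p 4.45e-17), with the caution that it overlaps the non-coding RNA gene AT2G36792 and resembles DOGT1. The MATE efflux genes AT2G04050 and AT2G04070 were higher by 2.04 (adjusted p 2.92e-22) and 1.57 (adjusted p 3.03e-21). CAF1a, a subunit of the deadenylase that shortens poly(A) tails, was higher by 2.35 (adjusted p 5.61e-14), and the zinc finger gene STZ by 1.87 (adjusted p 6.19e-11). AOX1D, an alternative oxidase, and NDA1, an alternative NAD(P)H dehydrogenase, were higher by 1.14 and 1.03 (adjusted p 1.59e-11 and 1.04e-09). Outside these roles, the nitrate transporter gene NRT2.6 was higher by 1.33 (adjusted p 1.23e-16) and the root meristem growth factor gene RGF9 by 1.65 (adjusted p 1.52e-09). NRT2.6 is not a member of the nitrate list used below. With phosphate none of these 10 genes was called. The difference between media was called for 9 of them, the exception being NDA1, beside 3.68% of all genes. The 10 genes were chosen as called without phosphate and not with it, so nothing is read from either count. No list of such genes was fixed, so no statement is made on these roles as a group.

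**Figure D4:**
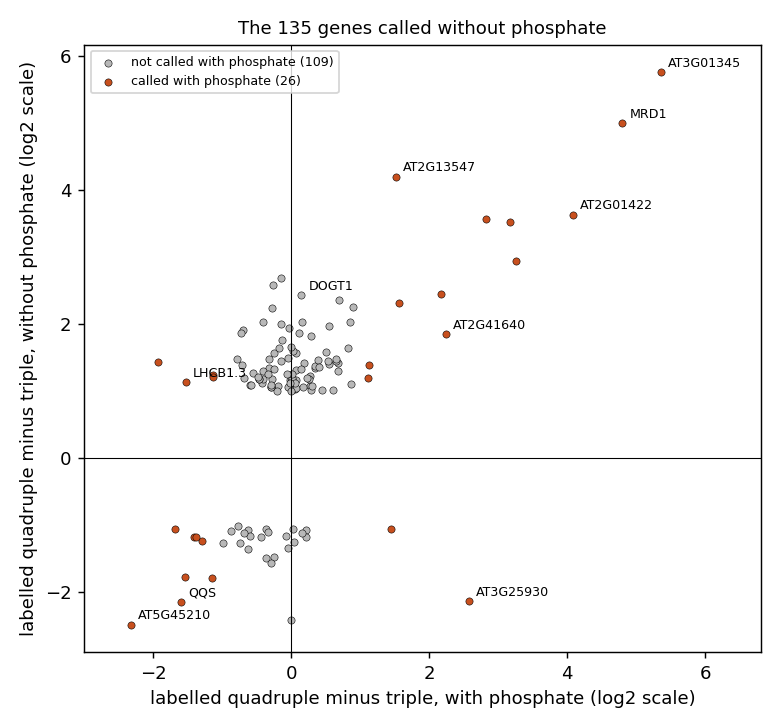
Log2 difference between the libraries labelled quadruple and triple with phosphate (horizontal axis) and without it (vertical axis) for the 135 genes called without phosphate; orange points were also called with phosphate (26). The 20 genes of the same sign include AT3G01345, MRD1, AT5G45210 and QQS, and AT3G25930 and LHCB1.3 are among the 6 of opposite sign.

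No gene of the phosphate starvation lists was called. The lists of phosphate signalling, phosphate transport, phosphatases and ribonucleases, and lipid remodelling held 67 genes, of which 63 were tested and 46 were called as induced by phosphate starvation in Col. None of the 63 was called between the groups, where 0.637% of all genes were called. An unadjusted p under 0.05 was found for 12 of them, beside 13.6% of all genes, and an adjusted p under 0.05 for 2, beside 2.82% of all genes. The median log2 difference was -0.13 for signalling, 0.01 for transport, 0.01 for phosphatases and ribonucleases and -0.01 for lipid remodelling, beside -0.02 for all genes tested. In 12 of the 63 genes both group means were under 1 RPKM, so little change could be seen. Of the other 51, 48 had a 95% interval that stayed within a log2 of 1 on either side.

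Among the signalling genes, IPS1 (a non-coding RNA that sequesters miR399) read 81.2, 74.9 and 68.7 RPKM in the triple and 73.1, 36.9 and 55.2 RPKM in the libraries labelled quadruple, against a mean of 2062 RPKM in Col -Pi. The groups overlapped and the 95% interval was -1.11 to 0.13. SPX3, a phosphate sensor protein gene, read 14.6, 15.0 and 13.6 RPKM against 10.7, 7.39 and 10.2 RPKM, far below the 650.2 RPKM of Col -Pi. The groups did not overlap, but the difference of -0.57 had an adjusted p of 0.146. MIR827A, the precursor gene of a microRNA that targets NLA, read 8.13, 7.04 and 15.2 RPKM against 2.36, 3.71 and 4.46 RPKM, and its difference of -1.26 (95% interval -2.06 to -0.46) had an adjusted p of 0.0764. MIR399C, whose product targets PHO2, read at most 1.95 RPKM in the 6 libraries (-0.85, adjusted p 0.158). SPX1 differed by -0.17 (95% interval -0.62 to 0.28) and PHO2, which removes phosphate transporters, by 0.00 (-0.56 to 0.56). IPS1, SPX1, PHO2 and the genes PHT1;4, SQD2 and PAP17 below are outside the naming rule and are given as textbook markers.

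Among the transporters, PHT1;4 read 156.0, 142.4 and 141.7 RPKM in the triple and 177.9, 148.1 and 170.7 RPKM in the libraries labelled quadruple (95% interval -0.03 to 0.38). PHT1;2 read 7.67, 5.46 and 6.77 RPKM against 5.54, 4.88 and 4.78 RPKM (-0.32, adjusted p 0.25), and its reads may be shared with its close copy PHT1;3. PHO1;H1, a phosphate exporter, differed by -0.33 (adjusted p 0.409). G3Pp2, annotated as a root hair specific gene and placed in the transport list, passed at an adjusted p of 0.0381 with a difference of 0.36, too small for a call.

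Purple acid phosphatase PAP24 read 10.2, 8.90 and 10.2 RPKM in the triple and 6.83, 4.26 and 5.75 RPKM in the libraries labelled quadruple. The groups did not overlap and the adjusted p was 5.14e-04, but the difference of -0.72 was too small for a call. PAP17 differed by 0.20 (95% interval -0.12 to 0.52), RNS2, a ribonuclease, by 0.33 (-0.22 to 0.88) and PS2, annotated as an inorganic pyrophosphatase, by 0.26 (-0.16 to 0.67). In lipid remodelling, SQD2, which makes sulfolipid, read 71.3, 67.2 and 62.5 RPKM against 72.6, 49.1 and 69.9 RPKM (-0.33 to 0.16). NPC4, a phospholipase, differed by -0.40 (adjusted p 0.283), PAH2 by -0.40 (adjusted p 0.494) and GDPD2 by 0.35 (adjusted p 0.382).

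**Figure D5:**
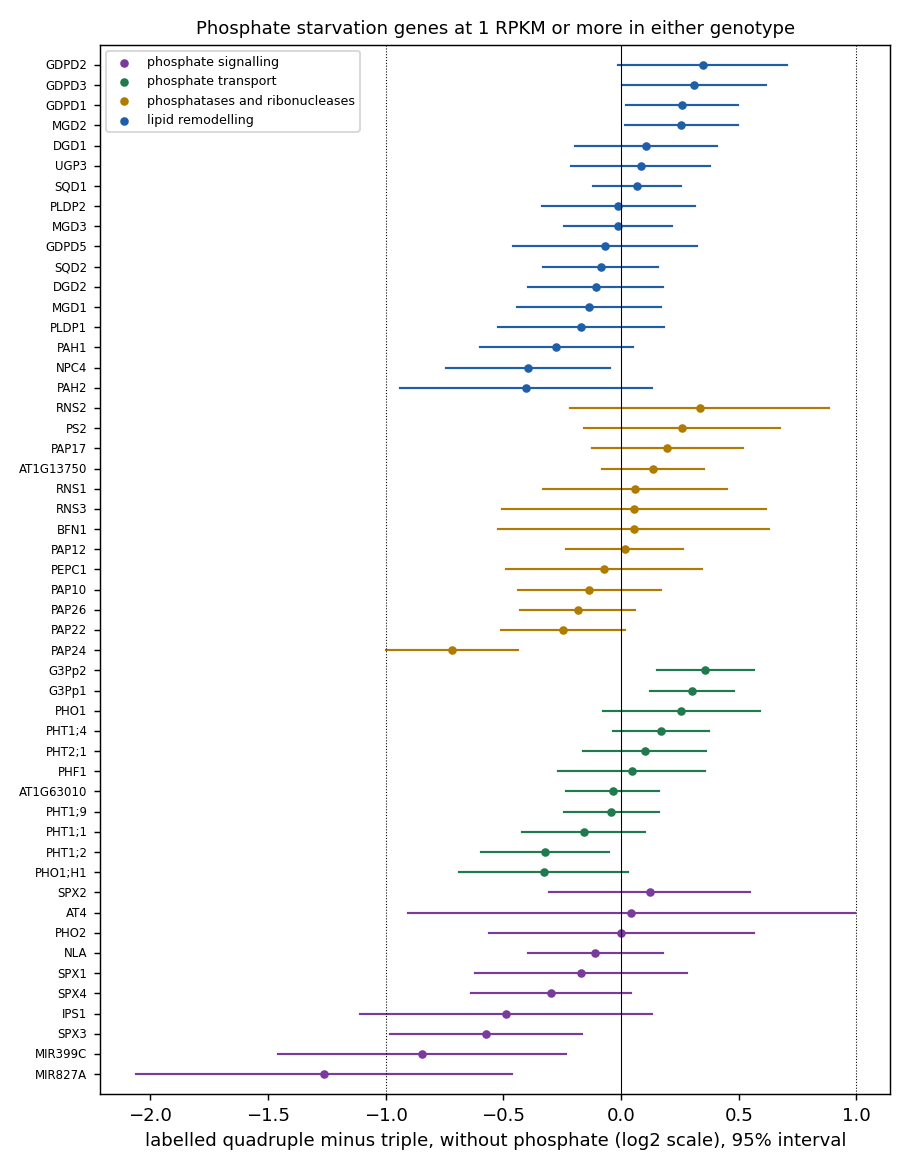
Log2 difference between the libraries labelled quadruple and triple without phosphate (points) with its 95% interval (lines) for the 51 tested genes of the 4 phosphate lists with a mean of 1 RPKM or more in either group; dotted lines mark a log2 of 1. All but 3 intervals stay between the dotted lines, and MIR827A and MIR399C lie farthest to the left.

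Genes that responded to phosphate starvation in Col were also followed as a whole, since Col libraries are not part of the contrast. Of the 1323 genes induced in Col, 26 were called (1.97%), 13 higher and 13 lower, and their median difference was -0.12. Of the 1738 genes repressed in Col, 28 were called (1.61%), 24 higher and 4 lower, with a median of 0.29. Both shares were above the 0.637% of all genes tested, a difference that was not tested. Without quadruple replicate 2 these medians were -0.02 and 0.14, and 19 and 11 genes were called, where 0.41% of all genes were.

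The promoter element P1BS was looked for in the same genes. The letters GNATATNC, which read the same on either strand, were searched from 250 bases before to 50 after the annotated gene start in TAIR10.1. They occurred in 6.37% of the promoters of all tested genes and in 47.8% (32 of 67) of the genes of the 4 phosphate lists. Among the called genes they occurred in 5 of 103 higher (4.85%) and 2 of 32 lower genes (6.25%), a share near that of all genes. The 7 genes were MRD1, AT2G04070, RTFL12, DIP2 and AT5G09570 on the higher side and AT1G23160 and AT5G45200 on the lower side. The 250 bases before the start of SPX3 and MIR827A are shown, as these phosphate genes lay at the lower end of their list and hold more than 1 match each; capitals mark the matches. SPX3 lies on the plus strand at chr2:18606160-18606409 and MIR827A on the minus strand at chr3:22122937-22123186, both 5-prime to 3-prime.
SPX3: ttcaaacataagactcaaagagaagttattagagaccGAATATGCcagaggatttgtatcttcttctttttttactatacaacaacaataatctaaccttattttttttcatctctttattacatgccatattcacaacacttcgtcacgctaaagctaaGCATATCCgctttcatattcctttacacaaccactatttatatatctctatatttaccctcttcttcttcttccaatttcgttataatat
MIR827A: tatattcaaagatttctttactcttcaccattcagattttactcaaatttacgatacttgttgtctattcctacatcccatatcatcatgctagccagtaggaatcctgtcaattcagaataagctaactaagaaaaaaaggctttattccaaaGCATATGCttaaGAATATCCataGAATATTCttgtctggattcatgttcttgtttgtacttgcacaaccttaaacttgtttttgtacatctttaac
The matches started 213 and 90 bases before the gene start in SPX3, and 96, 84 and 73 bases before it in MIR827A.

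Of the other lists, 2 held a call. Among 27 photosynthesis genes, which mark green tissue, LHCB1.3 and PSAD-1 were called higher, as were 0.486% of all genes, and the median difference was 0.71, beside -0.02 for all genes. The summed level of the 27 genes was 260.2, 325.2 and 1029 RPKM in the triple and 687.4, 1033 and 725.6 RPKM in the libraries labelled quadruple, so that triple replicate 3 lay within the range of the latter. PSAD-1, a photosystem I subunit, read 8.36, 12.9 and 20.1 RPKM against 24.5, 50.4 and 30.4 RPKM (1.304 ± 0.36, adjusted p 0.0286). LHCB1.3, a chlorophyll-binding antenna protein, read 36.3, 39.2 and 155.2 RPKM against 117.9, 173.3 and 117.1 RPKM, so its groups overlapped (1.13, adjusted p 0.0229). RBCS1A, a small subunit of Rubisco with near-identical copies, read 21.8, 41.3 and 138.4 RPKM against 100.3, 162.8 and 126.7 RPKM (1.33 ± 0.41, adjusted p 0.0643). RBCS3B, another small subunit, read 1.02, 1.303 and 38.0 RPKM against 10.6, 27.55 and 10.8 RPKM (1.48 ± 0.59, adjusted p 0.225). In both genes triple replicate 3 was the highest of its group and the groups overlapped. The count turned on single libraries: 18 of the 27 genes were called without triple replicate 3 (median 1.22), where 0.849% of all genes were. Without quadruple replicate 2, 0 of the 27 were called (limma, 8 at an unadjusted p under 0.05, median 0.51), where 0.41% of all genes were called and 8.16% had an unadjusted p under 0.05. With phosphate the median of the 27 genes was -0.42. There 1 of them was called higher and 5 lower, beside 2.47% of all genes called in either direction. The difference between media was called for 10 of the 27, beside 3.68% of all genes. In roots measured in bulk, fewer cells of a type and less RNA per cell cannot be told apart.

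CASP5, which builds the Casparian strip, was the call among 20 endodermal barrier genes. It read 5.96, 6.76 and 6.58 RPKM in the triple and 3.87, 1.32 and 2.15 RPKM in the libraries labelled quadruple (-1.18 ± 0.27, adjusted p 0.00482), and it was not called without quadruple replicate 2 (-0.92, adjusted p 0.116). The related CASP4 differed by 0.61 and was not called (adjusted p 0.201).

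The flavonoid list had no call without phosphate in the limma fit, though all 8 tested members were positive, 7 with an unadjusted p under 0.05 and 5 with an adjusted p under 0.05. Over all genes tested 47.6% were positive, 13.6% had an unadjusted p under 0.05 and 2.82% an adjusted p under 0.05. The median difference was 0.70, and 0.54 without quadruple replicate 2. F3'H, a flavonoid hydroxylase, read 2.93, 2.44 and 2.57 RPKM in the triple and 5.66, 4.98 and 4.42 RPKM in the libraries labelled quadruple (0.72 ± 0.13, adjusted p 1.15e-04). CHI and CHIL, a chalcone isomerase and its relative, differed by 0.76 (adjusted p 0.121) and 0.82 (adjusted p 0.0175). With phosphate all 8 were called higher, as were 1.35% of all genes tested, and their median difference was 2.98. The difference between media was called for 6 of them, beside 3.68% of all genes.

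In the remaining lists no gene was called, and the members with the largest differences are named. An adjusted p under 0.05 was reached by 3 of 22 jasmonate, 1 of 17 nitrate, 1 of 8 iron storage, 2 of 9 sugar and amino acid export, 2 of 18 sulfate, 2 of 18 immune and 1 of 9 low oxygen genes, beside 2.82% of all genes tested. In the jasmonate list TAT3, a tyrosine aminotransferase, read 53.2, 56.9 and 57.1 RPKM against 30.6, 33.2 and 29.8 RPKM (-0.82 ± 0.12, adjusted p 2.65e-06), while VSP2, a vegetative storage protein, differed by 0.71 (adjusted p 2.47e-05) and JAZ8 by -0.73 (adjusted p 0.0192). In the nitrate list NRT1.5, which loads nitrate into the xylem, read 91.3, 100.6 and 92.1 RPKM against 146.2, 172.3 and 155.3 RPKM (0.73 ± 0.10, adjusted p 2.3e-07). NRT3.1 and NRT1.8 differed by 0.50 and 0.40 (adjusted p 0.442 and 0.275). In iron storage VTL2, of the vacuolar iron transporter family, read 0.642, 1.76 and 1.15 RPKM against 2.32, 3.86 and 3.38 RPKM (0.95, adjusted p 0.00477). VTL5 and the ferritin gene FER2 differed by 0.60 and 0.35 (adjusted p 0.438 and 0.427).

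In the sugar and amino acid export list, OCT1, a carnitine transporter, and SUC2, which loads sucrose into the phloem, differed by -0.63 and -0.40 (adjusted p 0.00262 and 0.0137), and SWEET15 differed by 0.47 (adjusted p 0.114). In the sulfate list SULTR3;4 differed by -0.51 (adjusted p 0.0381), and LSU2 and LSU1 by 0.72 and 0.47 (adjusted p 0.292 and 0.616). ICS1, a salicylic acid synthesis gene of the immune list, differed by 0.44 (adjusted p 0.0201), PAD3 by 0.39 (adjusted p 0.19) and WRKY70 by -0.44 (adjusted p 0.374). PDC1, a pyruvate decarboxylase of the low oxygen list, differed by 0.49 (adjusted p 0.00974), HB1 by 0.70 (adjusted p 0.426) and ADH1 by 0.29 (adjusted p 0.375).

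No member of the iron uptake, root hair, dividing cells, circadian clock or root tip phosphate and aluminium lists had an adjusted p under 0.05. Their medians ran from -0.10 to 0.04. The members farthest from 0 were ABCG37 (-0.39), MYB10 (0.35) and NRAMP1 (-0.30) for iron uptake, and RHD6 (-0.53), RHD2 (-0.28) and EXPA18 (0.23) for root hairs. For dividing cells and the root tip they were WOX5 (0.69), PLT1 (-0.45) and KN (0.35). For the clock they were PRR7 (-0.30), ELF3 (-0.16) and LUX (-0.15), and for root tip phosphate and aluminium ABCI17 (0.56), ALS3 (0.43) and the MATE efflux gene AT1G51340 (-0.24).

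The called genes were spread over the genome, with 36, 31, 20, 23 and 25 on chromosomes 1 to 5, which is 0.483% to 0.954% of the genes tested on each. Within 2 places of each other in the annotation lay 10 pairs of called genes, made up of 14 genes, and all 10 pairs had the same sign. Besides MRD1 with HEI10, AT5G45200 with AT5G45210 and the DOGT1 group, they were AT4G27652, AT4G27654 and AT4G27657, AT4G23670 with AT4G23680, and AT2G03821 with AT2G03822. In 3 of the 10 pairs the genes overlap, so their reads may be shared. Some pairs also have a gene in common, and 103 of the 135 called genes were higher, so little is read from the shared sign. No share of neighbouring pairs over all genes was computed.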

How the data were processed

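RNA sequencing measured 12 genotypes on 2 media with 3 libraries each, 72 in all. The authors deposited 1 table of RPKM. The submitters' processing notes list TAIR10 as the build and TopHat and edgeR as tools, without versions or roles. Counting, strand and read length are not given in the sources used here. Per the labels' protocols RNA was selected with oligo(dT) beads. The series calls the replicates biological; nothing says they came from separate plates, so p-values may measure technical spread.

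Log2(RPKM + 1) was fitted with limma 3.58.1 in R 4.3.3 (trend and robust empirical Bayes, 24 group means, all 72 libraries, 48 residual degrees of freedom) on genes that reached 1 RPKM in 3 or more libraries. Adjusted p-values are by Benjamini-Hochberg over 21206 genes. Depth is an estimate from the commonest low value times gene length; since only 40.0% of low values (median over libraries) came within 0.05 of whole reads, no count test was run. Libraries were put in 3 classes (35, 20 and 17 libraries) by k-means on their slopes against GC content, length and adenine content. The triple -Pi libraries and quadruple replicates 1 and 3 were class 1, quadruple replicate 2 was class 2.

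The members, the 20 gene lists (321 genes, 301 tested) and the tests were chosen with earlier results of these data known. Named genes were the PHR1 family, the 10 largest called differences in either direction without overlap, the 6 in either direction called with and without the class term, the 3 largest of each list and the 3 largest differences between media in either direction; 1 of them is not reported here. Names, positions and promoters came from RefSeq on TAIR10.1; the deposited table holds no coordinates. Alternatives were a pseudocount of 0.1, no filter, median-ratio rescaling, the compared groups alone, a replicate block, the class or slopes as terms, class 1 alone and each library left out. Figures used Python 3.11.15 and matplotlib 3.10.9.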

Additional observations from a re-analysis of the deposited data

Results flagged for a closer look

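For 22 named genes the contrast between the libraries labelled quadruple and triple differed between media, by the limma test of that difference (adjusted p under 0.05 and at least 1 on the log2 scale); values are the difference without phosphate minus the difference with phosphate. The most negative were AT3G25930 (-4.71), the snoRNA gene AT1G74453 (-4.59) and the precursor gene MIR775 (-4.58). AT1G74453 and MIR775 were not called without phosphate and were higher by 3.54 and 3.45 with it. MIR157b differed by -2.41, which is its difference without phosphate alone, since it was listed at 0 RPKM in all 6 libraries with phosphate. AT1G52343 differed by -1.12. The flavonoid genes F3'H, CHI and CHIL differed by -2.74, -2.64 and -2.12. Of the named genes of the phosphate lists, SPX3 differed by -1.02, PS2 by 1.33 and GDPD2 by 2.13, none of them called without phosphate. In the phosphate transport list 1 gene, not among these 22, was also called for this difference. With phosphate 2 transport genes were called higher. There 2 genes of the phosphatase and ribonuclease list and 1 of lipid remodelling were called lower, beside 2.47% of all genes called in either direction.

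The most positive were SEN1 (3.87), AT1G19530 (3.42) and AT3G45730 (3.37). SEN1 and AT1G19530 were not called without phosphate and were lower with it (-3.21 and -2.94). AT5G51190, AT1G09310 and AT2G13547 differed by 2.85, 2.83 and 2.68. Photosynthesis genes PSAD-1, RBCS1A and RBCS3B differed by 1.71, 1.81 and 3.15, VTL2 by 1.45 and ICS1 by 1.01.

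The libraries labelled quadruple with phosphate were all class 3, those of the triple 2 of class 3 and 1 of class 2, and without phosphate 5 of the 6 libraries were class 1. Medium and library class moved together, and the part of class in these values was not tested gene by gene. With the class as a term 614 genes were called for this difference, 452 of them among the 780.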

How the results depend on the processing

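Without phosphate the count of 135 became 206 with a pseudocount of 0.1, 28 with the compared groups alone and 16 with the replicate block in the compared groups alone; these last 2 fits rest on fewer libraries. Leaving out 1 library gave 87 to 195, lowest without quadruple replicate 2. The other counts lay between 105 and 134. With phosphate the count of 523 became 878, 249 and 0 under the first 3 settings (1783 genes at an unadjusted p under 0.05 in the last), and 474 to 688 with a library left out. The difference between media, 780, became 278 with the compared groups alone and 50 with the block there. With a library left out it ran from 478 (without quadruple -Pi replicate 2) to 1331. Without triple +Pi replicates 1 and 3 it was 1257 and 1331. Without triple +Pi replicate 2 it was 586, of which 463 were among the 780. Beyond those shown by the library left out or the smaller fits, the cause was not tested. Of the 135 genes, 15 were called with the same sign under all 15 alternatives, 13 higher and 2 lower. They were AT3G01345, MRD1, HEI10, AT5G35375, AT5G51190, DOGT1, CAF1a, AT2G04050, AT4G04223, AT3G02480, AT1G50350, AT5G17350 and PNP-A, and AT5G45210 and QQS.

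Whether replicate numbers pair the libraries was not settled. Deviations of same-numbered libraries correlated at 0.35, 0.342 and 0.016. Replicates 1 and 2 correlated best with their own number, and replicate 3 did not. The block left 134 calls in the fit of all groups (762 for the difference, 520 with phosphate) and 16 in the compared groups alone. In the compared groups alone, without phosphate, 1516 genes had an unadjusted p under 0.05 without the block and 2818 with it (limma).

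Of 87 named genes, 23 were called, and 16 of these lost the call under at least 1 alternative, the snoRNA gene AT3G58196 under 13 of 15. No called value changed sign. Of the 64 not called, 7 gained a call somewhere, and small uncalled differences changed sign 25 times, PHL2, PHL3, PHL4 and PHR1 among them. Rescaling moved the median of all genes from -0.02 to -0.01. Short genes, microRNA precursors and snoRNAs rest on few reads at these depths.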
